A study of Caenorhabditis elegans with 2 samples.

Results

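The regions described here are candidate binding regions of DMD-4 in promoters of the X chromosome of Caenorhabditis elegans. They were chosen by position and not by signal: a region of the candidate list called on both replicates together was a member when it lay on X and its summit, the position of its highest signal, fell between 1000 bp before and 200 bp after the annotated start of a protein-coding transcript. Of 11281 regions in that list, 2421 lay on X and 609 of these met the rule. Another 1812 X regions lay outside promoters, and 3004 regions lay in autosomal promoters.

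The study has 1 group with 2 biological replicates of chromatin immunoprecipitation and sequencing (ChIP-seq), and no second condition. The material was whole L2 larvae of both sexes pooled, their exact age not known, from strain OP418. That strain has the unc-119(tm4063) mutation on chromosome III and an integrated transgene, wgIs418, which makes DMD-4 with GFP and FLAG at its C terminus. Sonication was used to shear the chromatin, and the antibody label reads dmd-4. Worms of all tissues were pooled, so a region bound in few cells cannot be told apart from one weakly bound in many. The candidate lists hold 17531 regions for replicate 1 and 18240 for replicate 2, and 212 regions of the pooled list form a list thresholded by irreproducible discovery rate (IDR), which ranks regions by how well replicates repeat them. These 212 were the strongest of the pooled list by signal. Read counts were not used here, so depth is unknown.

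DMD-4 belongs to the DM-domain family of transcription factors, whose members in many animals act in sexual development. The worm X chromosome is itself the signal of sex: hermaphrodites are XX and males XO. In XX animals the dosage compensation complex is recruited to sites on X, many of which hold a sequence known as MEX (motif enriched on X), and lowers transcription from both copies. The protein SDC-2 is needed to bring the complex to X, and XOL-1 keeps the process off in males. This is background and not a result of the data.

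The sequences of 7 members are shown because they carry the features described below. The first 3 are the members with the MEX core within 100 bp of the summit, the next 2 are members with GAGA repeats, C09G1.2 is an AT-rich member of the IDR list, and sdc-2 is a member strong in replicate 2 only. Each is the 201 bp centred on the summit, read 5′ to 3′ on the forward strand of the RefSeq genome of WBcel235, which is ce11. Capitals mark the MEX core GCGCAGGG, the repeat GAGAGA and the DM-domain core ACAATGT, on either strand.
nspc-17, chrX:14525840-14526040: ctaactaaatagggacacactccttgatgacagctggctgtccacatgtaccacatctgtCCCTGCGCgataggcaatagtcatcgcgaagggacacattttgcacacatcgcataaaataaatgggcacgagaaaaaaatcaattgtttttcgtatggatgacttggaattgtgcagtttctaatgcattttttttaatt
ins-39, chrX:1344949-1345149: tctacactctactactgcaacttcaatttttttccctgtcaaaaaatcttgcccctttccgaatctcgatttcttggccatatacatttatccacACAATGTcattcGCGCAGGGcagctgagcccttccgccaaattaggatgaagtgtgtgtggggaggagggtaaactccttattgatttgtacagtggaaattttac
egl-17, chrX:489848-490048: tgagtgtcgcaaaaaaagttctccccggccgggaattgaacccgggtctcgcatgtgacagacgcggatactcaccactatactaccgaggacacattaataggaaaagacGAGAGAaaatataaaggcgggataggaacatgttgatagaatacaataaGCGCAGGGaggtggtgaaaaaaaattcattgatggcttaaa
puf-9, chrX:5841219-5841419: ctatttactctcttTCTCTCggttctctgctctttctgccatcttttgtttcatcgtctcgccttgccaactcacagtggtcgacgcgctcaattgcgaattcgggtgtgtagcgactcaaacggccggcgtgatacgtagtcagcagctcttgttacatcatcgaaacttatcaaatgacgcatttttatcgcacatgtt
ZK1193.2, chrX:410131-410331: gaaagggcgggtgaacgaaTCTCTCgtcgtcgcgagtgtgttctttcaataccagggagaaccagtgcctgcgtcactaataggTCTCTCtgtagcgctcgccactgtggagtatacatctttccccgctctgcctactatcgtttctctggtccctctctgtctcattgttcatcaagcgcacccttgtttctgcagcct
C09G1.2, chrX:15983369-15983569: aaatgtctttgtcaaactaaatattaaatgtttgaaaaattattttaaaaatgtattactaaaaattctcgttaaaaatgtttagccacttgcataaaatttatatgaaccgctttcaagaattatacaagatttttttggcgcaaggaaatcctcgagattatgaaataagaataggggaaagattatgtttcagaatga
sdc-2, chrX:11522254-11522454: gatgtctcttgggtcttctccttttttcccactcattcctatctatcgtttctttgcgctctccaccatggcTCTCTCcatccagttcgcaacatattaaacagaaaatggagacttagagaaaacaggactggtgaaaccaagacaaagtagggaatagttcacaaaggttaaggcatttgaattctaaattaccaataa

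Most X promoter regions were weak and a few stood out. The signal is the authors' value for each region, on a scale that the sources used here do not give. Different regions are compared only within a list. Where the values of a region in several lists are set side by side, the lists may differ in scale and depth, so a difference between lists is no result. The pooled signal of the 609 members ran from 13.0 to 118.6, with a median of 16.99 and quartiles of 14.5 and 21.2. X regions outside promoters had a median of 16.7, autosomal promoter regions 17.2 and the whole pooled list 16.6. The highest signals on X lay outside promoters, where they reached 251.6.

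Members were in the IDR list about as often as candidate regions in general. The IDR list held 12 of the 609 members, or 1.97% (exact 95% interval 1.02 to 3.42), beside 1.88% of the pooled list. That share is near the background and is no result about X promoters. For X regions outside promoters it was 34 of 1812, or 1.88%, and for autosomal promoter regions 99 of 3004, or 3.30%. These shares were not tested against each other, since regions are not replicates. The intervals cover the counting of regions only.

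The strongest members were those of nspc-17 and ins-39. The region at chrX:14525910-14525998 had its summit 759 bp upstream of nspc-17, of a nematode-specific peptide family, with a signal of 118.6 in the pooled list, 72.0 in replicate 1 and 52.0 in replicate 2. It was the only member not 350 bp wide, at 89 bp, and the summit of replicate 1 lay 93 bp away from the pooled one. At chrX:1344874-1345223 the summit lay 628 bp upstream of ins-39, which encodes an insulin-like peptide, with a pooled signal of 111.1, 61.2 in replicate 1 and 54.1 in replicate 2. These were the 2 highest members in each list, nspc-17 first in replicate 1 and ins-39 first in replicate 2. Further down, egl-17, which encodes a fibroblast growth factor that guides migrating sex myoblasts, had a region at chrX:489773-490122 with the summit 174 bp downstream of a start site, in an intron. Its signals were 46.4 pooled, 29.3 in replicate 1 and 16.2 in replicate 2. This was the weakest member, and the weakest of all 212 regions, in the IDR list.

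The next IDR members are described with what each gene is known to encode. The region at chrX:5841144-5841493 lay 273 bp upstream of puf-9, which encodes an RNA-binding protein of the Pumilio family, with signals of 81.2 pooled, 40.2 in replicate 1 and 43.1 in replicate 2. The region at chrX:2687155-2687504 lay 146 bp upstream of immt-1, which encodes a mitochondrial inner membrane protein, with 74.4 pooled, 30.9 in replicate 1 and 40.7 in replicate 2. At chrX:11206957-11207306 the summit lay 23 bp downstream of a start site of hst-2, a heparan sulfate sulfotransferase gene, in its 5′ UTR, with 65.3 pooled, 29.8 in replicate 1 and 33.3 in replicate 2. These 3 were each somewhat higher in replicate 2. The region of epg-7, an autophagy scaffold gene, at chrX:7334395-7334744 lay 144 bp upstream with 61.3 pooled, 32.8 in replicate 1 and 30.4 in replicate 2. The region of rme-4, an endocytosis gene, at chrX:10377661-10378010 lay 67 bp upstream of its nearest start site, inside an intron of a longer transcript, with 51.4 pooled, 31.4 in replicate 1 and 19.7 in replicate 2.

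The last 4 IDR members lay beside genes of less known function. C09G1.2 had a summit 739 bp upstream at chrX:15983294-15983643, with signals of 61.5 pooled, 30.3 in replicate 1 and 29.6 in replicate 2. aexr-3 had a summit 515 bp upstream at chrX:8961510-8961859, with 53.8 pooled, 23.1 in replicate 1 and 29.7 in replicate 2. ZK1193.2 had a summit 288 bp upstream of its nearest start site, in an intron, at chrX:410056-410405, with 49.2 pooled, 27.0 in replicate 1 and 23.5 in replicate 2. The region at chrX:785341-785690 lay 563 bp upstream of T04G9.6, with 47.2 pooled, 26.3 in replicate 1 and 15.5 in replicate 2. T04G9.6, egl-17 and rme-4 were the 3 IDR members whose replicate signals differed by 1.5 times or more, and all 3 were higher in replicate 1.

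**Figure D1:**
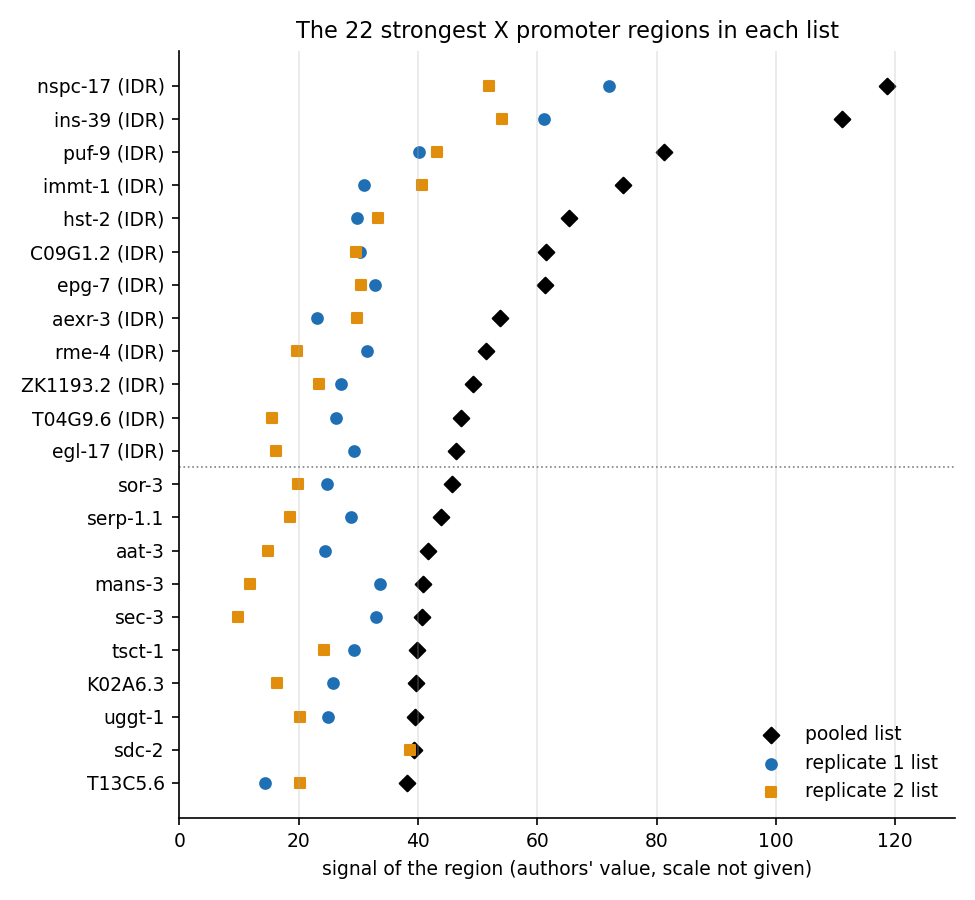
Signal (horizontal axis, the authors' value) of the 22 strongest X promoter regions in the pooled list (diamonds), in replicate 1 (circles) and in replicate 2 (squares); the dotted line divides the 12 members of the IDR list from the next 10. nspc-17 and ins-39 lead in all 3 lists, and sdc-2 has no circle because no replicate 1 region overlapped it.

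Just below the threshold the members thinned out without a gap. The lowest IDR member was egl-17 at 46.4 and the highest member outside the list was sor-3 at 45.7, in the region chrX:353115-353464. sor-3 encodes a repressor of homeotic genes; its region had signals of 24.7 in replicate 1 and 19.9 in replicate 2. Next came serp-1.1 with 43.9, aat-3, an amino acid transporter gene, with 41.8, mans-3 with 40.9 and sec-3, an exocyst subunit gene, with 40.7. The regions of mans-3 and sec-3 leaned on replicate 1, at 33.6 and 33.0, against 11.9 and 9.80 in replicate 2. tsct-1 (39.9), K02A6.3 (39.6), uggt-1, which encodes a glucosyltransferase of glycoprotein folding (39.5), and T13C5.6 (38.2) had regions in each replicate as well.

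The region upstream of sdc-2 stood out between the replicates. It lay at chrX:11522179-11522528, with the summit 353 bp upstream of the start site and a pooled signal of 39.3. Replicate 2 had an overlapping region with a signal of 38.7, the 82nd highest of its list, and replicate 1 had none. The nearest replicate 1 region, at chrX:11522578-11522921, had its summit 396 bp away and 43 bp downstream of the sdc-2 start site, with a signal of 16.3. No read counts were used, so it was not tested whether reads in replicate 1 also rise at the upstream position. Other strong members seen in 1 replicate only were bet-2 (pooled signal 35.1, replicate 1 only at 28.8), C14A11.9 (33.7, replicate 1 only at 25.2), epn-1 (29.9, replicate 1 only at 29.5) and F57C7.4 (28.9, replicate 2 only at 20.4).

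Across all members, a minority recurred in each replicate. A region of each replicate overlapped 258 of the 609 members, or 42.4% (exact 95% interval 38.4 to 46.4), beside 39.2% of the pooled list. Replicate 1 alone overlapped 172, replicate 2 alone 142, and 37 members overlapped no region of either. The share rose with pooled signal, when the members were divided into 4 groups of rising signal, from 24 of 153 in the weakest group (15.7%) through 26.3% and 50% to 118 of 152 in the strongest (77.6%). The pooled signal comes from the same reads as the replicate lists, so this order is no independent evidence. All 12 IDR members overlapped a region of each replicate. The IDR list was made from the same replicates, so this is no independent evidence either.

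Among members found in each replicate the strength of a region in replicate 1 said little about its strength in replicate 2. Spearman's rho between the replicates' signals was 0.17 over the 258 members and 0.058 over the 246 that were not in the IDR list. Over the 12 IDR members it was 0.73, in members that the threshold had selected for high signal. The other 246 lay between the lower limit of the pooled list and the IDR threshold, which narrows their range. Overlapping members can also share a replicate region and its value. The correlations are descriptions over regions that share libraries and a control, with no test. Both replicate summits lay within 100 bp of the pooled summit in 129 of the 258. The median signal of the 258 was 12 in replicate 1 and 10.02 in replicate 2, and 167 of them were higher in replicate 1, on scales that may differ.

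**Figure D2:**
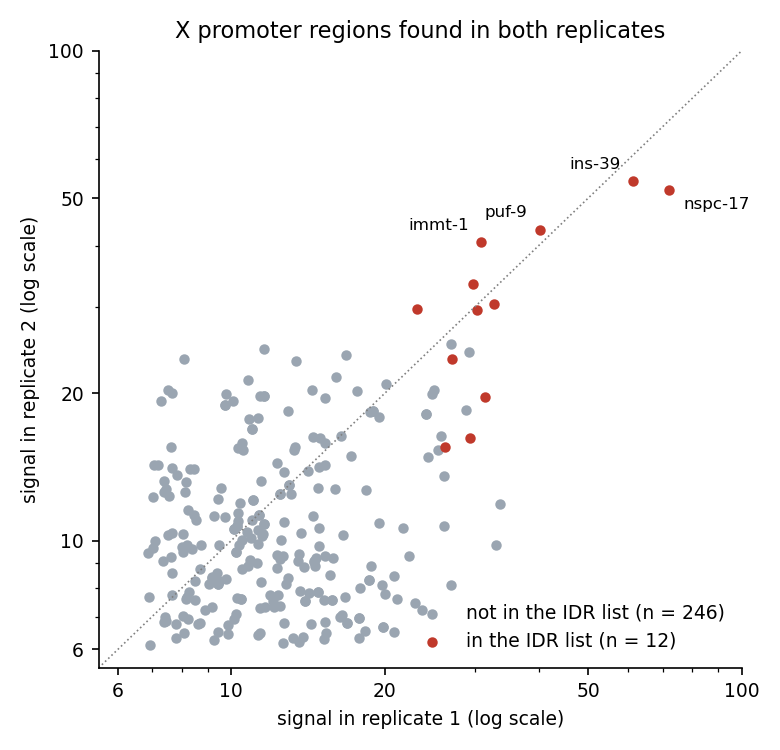
Signal in replicate 1 (horizontal) and replicate 2 (vertical), both on log scales, of the 258 X promoter regions that overlap a region of each replicate; the dotted line marks equal values. The 12 IDR members lie toward the upper right, while the other 246 form a cloud with a Spearman's rho of 0.058.

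The MEX core was found near the summit of 3 members, and all 3 were in the IDR list. The letters GCGCAGGG, on either strand within 100 bp of the summit, occurred at nspc-17, ins-39 and egl-17, that is in 3 of 12 IDR members and in 0 of the other 597. Its centre lay 36.5 bp to the left of the summit at nspc-17, 10.5 bp to the right at ins-39 and 63.5 bp to the right at egl-17. At nspc-17, whose region is short, the core lay just outside it, ending 3 bp before its first base. The shares were 0.493% of the members, 0.773% of X regions outside promoters, 0.0333% of autosomal promoter regions and 0.195% of the pooled list. On the whole of X 17 candidate regions had the core within 100 bp of the summit, of which 13 were in the IDR list, and their signals ran from 20.2 to 248.0. The association was not tested here, and earlier results of these data on short sequences were known when the motif was chosen.

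Most MEX cores on X had no candidate region. Chromosome X carries 81 occurrences of GCGCAGGG, of which 21 lay inside a candidate region, 16 inside an IDR region and 3 inside a member. Those 3 members were ins-39, egl-17 and R04E5.9, which is not in the IDR list and has its core 122.5 bp from the summit. In 20 of 2731 X genes the core lay somewhere in the promoter window (0.732%), compared with 0.429% of 17242 autosomal genes. Of those 20 genes, 6 had a member in the window: nspc-17, ins-39, daf-12, svh-5, R04E5.9 and cnnm-2. The members of daf-12, the nuclear receptor gene of the dauer decision, reached 26.9 and those of svh-5 23.5. R04E5.9 and cnnm-2 shared a region with 23.1, and in these 4 genes the core was not within 100 bp of a summit. The core near the summit of egl-17 lay beyond that gene's window. The other 14, among them jkk-1, apm-3 and alh-13, had no member.

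Of the other motifs, GAGA repeats were more frequent among the members than in candidate regions at large. TTTCAG was less frequent, as it also was in X regions outside promoters. GAGAGA occurred within 100 bp of the summit in 98 members (16.1%), beside 7.89% of X regions outside promoters, 13.4% of autosomal promoter regions and 10.8% of the pooled list. It was present in 5 of the 12 IDR members, those of puf-9, epg-7, rme-4, ZK1193.2 and egl-17. Among IDR regions elsewhere it was in 8 of 34 on X outside promoters (23.5%) and 25 of 99 in autosomal promoters (25.3%). Both shares were above those of all regions of these parts, so a higher share in the IDR list was not particular to X promoters. Of the 4 signal groups the weakest had it in 22 of 153 members, and the next in 13, 24 and 39 of 152 each, with no steady rise. The DM-domain core ACAATGT, whose reverse complement is ACATTGT, occurred in 30 members (4.93%), 4.36% of X regions outside promoters and 3.35% of the pooled list. From the weakest to the strongest signal group 9, 7, 11 and 3 members held it, and ins-39, with the MEX core beside it, was the only IDR member with it. TGTTGC, the core bound by the DM-domain protein MAB-3, was present in 9.52% of members, 9.44% of X regions outside promoters and 7.77% of the pooled list. In members and in the pooled list, TATAAA occurred in 26.3% and 30.5%, TGATAA in 20.03% and 19.5%, CACGTG in 3.28% and 2.55%, and TTTCAG in 27.4% and 35.6%. X regions outside promoters had TTTCAG in 30.4%, also below the pooled list, and autosomal promoter regions in 36.4%. A match is a description of the letters in a window, not a binding site.

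Members of the IDR list held more G and C than most other members. The median GC content within 100 bp of the summit was 31.3% over the 609 members, with quartiles of 27.4% and 37.3%, and 43.0% over the 12 IDR members. C09G1.2, at 25.4%, lay below the median of the 609 members and aexr-3, at 32.8%, just above it, and ZK1193.2 was highest at 52.7%. The median was 37.6% for IDR regions of X outside promoters and 38.8% for those of autosomal promoters. Over the 597 members not in the IDR list Spearman's rho between signal and GC content was 0.040, and over all members 0.075. The medians of the 4 signal groups, from weakest to strongest, the last with the IDR members in it, were 31.3%, 31.3%, 30.6% and 32.3%. The part of base composition in the signal was not tested.

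Some members, strong and weak, lay beside transfer RNA genes. A tRNA gene had the summit in its own window of the same size at 17 of the 609 members (2.79%), beside 5.57% of X regions outside promoters, 0.632% of autosomal promoter regions and 1.85% of the pooled list. Among the 22 strongest members there were 4. These 4 were ZK1193.2, with the summit 160 bp upstream of tRNA gene R04A9.t1, egl-17, 9 bp upstream of F38G1.t2, sor-3, 46 bp inside C04E7.t1, and aat-3, 39 bp inside F52H2.t1. Over the 17 the median pooled signal was 18.2, against 16.9 for the other members, and 9 overlapped a region of each replicate. The remaining 13 had signals of 22.5 or less, and they included members near lgc-25, stn-2 and lev-9. Near-identical tRNA copies can share reads, which was not tested here. In the genome, 12.6% of the 50-base words of the egl-17 region, 14.3% of those of sor-3 and 8.64% of those of aat-3 occur elsewhere, but none of ZK1193.2. egl-17 was the only IDR member with any such word, and 16 of all 609 members had one. tRNA names are those of RefSeq genes with the same span.

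**Figure D3:**
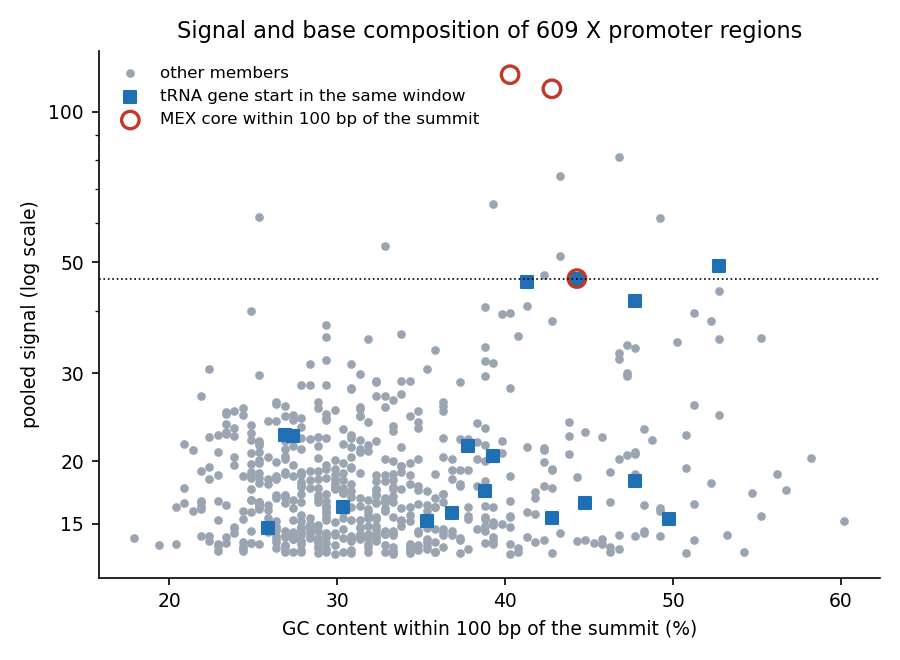
Pooled signal (vertical, log scale) against GC content within 100 bp of the summit (horizontal, percent) for the 609 X promoter regions; circles mark the 3 members with the MEX core within 100 bp of the summit, squares the 17 with a tRNA gene start in the same window, and the dotted line is the lowest signal of an IDR member, 46.4. All but 2 of the 12 IDR members lie above 39% GC, and 4 squares lie at signals of 41.8 and above.

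Summits of X promoter regions lay farther from start sites than those of autosomal promoter regions. The median position was 413 bp upstream of the nearest start site on X and 305 bp upstream on the autosomes. In the 300 bp before the start site were 166 members (27.3%) and 37.1% of autosomal promoter regions, while 251 members (41.2%) lay more than 500 bp upstream and 68 downstream. The difference was described and not tested. X summits were spread over the window, with 5.58% to 10.2% of members in each 100 bp bin, and the median depends on the window used. Genes on opposite strands shared 4.11% of members and 14.5% of autosomal promoter regions, and the part of this in the distances was not tested. Of the 12 IDR members 5 lay more than 500 bp upstream, with nspc-17 the farthest at 759 bp, and 2 downstream. An annotated start can be a trans-splice site, downstream of where transcription begins. By annotation 403 summits lay outside protein-coding genes, 143 in introns, 32 in coding exons, 21 in a 5′ UTR and 10 in a 3′ UTR.

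**Figure D4:**
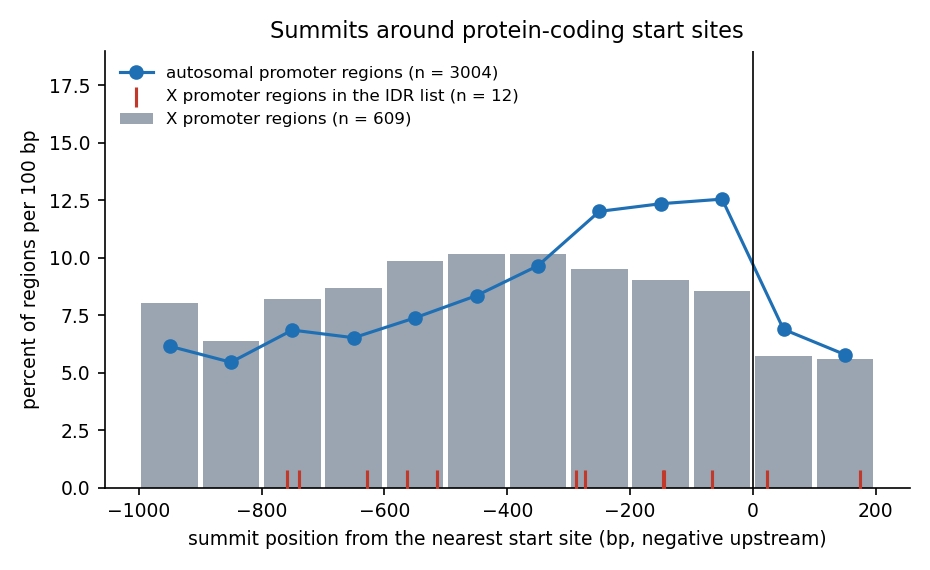
Percent of X promoter regions (bars) and of autosomal promoter regions (line) whose summit falls in each 100 bp bin from the nearest protein-coding start site (horizontal axis, bp, negative upstream); red ticks mark the 12 IDR members. The line is highest in the last 300 bp before the start site, while the 2 highest bars, 10.2% each, lie farther upstream.

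Promoter windows held somewhat more candidate regions for their length than the rest of X. The windows covered 3867011 bp, or 21.8% of X, and held 25.2% of its candidate regions, which comes to 157 per Mb inside and 131 per Mb outside. On the autosomes the densities were 134 and 96.8 per Mb. Members were spread along the chromosome much as genes were: of the left, middle and right parts, when X was divided into 3 equal lengths, the left held 187 members, 6 of them in the IDR list, the middle 218 with 4 and the right 204 with 2. That is 21.5, 22.3 and 23.1 members per 100 protein-coding genes. Most members belonged to 1 gene, since 572 lay in the window of a single gene and 37 in those of a pair. Genes on opposite strands shared 4.11% of the members, beside 14.5% of autosomal promoter regions.

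Of the 2731 protein-coding genes on X, 540 (19.8%) had a member in a promoter window, and 93 had more than 1. irk-3, a potassium channel gene, had 4, and 11 genes had 3, among them daf-12, ftt-2, hsp-25, nhr-1, npr-4 and npr-7. Some members of a gene overlap, as at npr-7, so they are not all separate sites. With overlapping regions merged there were 571 members instead of 609. Genes with a member had more annotated start sites, on average 1.94 against 1.40 in genes without, and so a longer window. The part of this in the counts that follow was not tested. The family lists that follow were made from the prefixes of gene symbols. Genes of like function under other symbols were not counted in them.

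Nuclear hormone receptor genes had the highest share of genes with a member among the lists with more than 2 genes on X. Of 23 nhr genes 12 had a member (52.2%), led by nhr-17 (pooled signal 37.4, replicate 1 19.5, replicate 2 17.9), nhr-32 (25.3) and nhr-28 (20.8), and none was in the IDR list. More than 1 start site was annotated in 52.2% of them and in 25.6% of all X genes. Ion channel subunit genes with the symbols twk, acr, lgc, glr, gar, glc, ggr, kvs, del, inx, clh or kqt had 12 of 50. Highest in this list were lgc-25 at 22.5, del-8 at 21.4 and lgc-32 at 18.4, while irk-3, outside it, reached 19.3. Chemoreceptor genes had 7 of 33, led by srd-40 at 26.5, srd-46 at 19.3 and srd-41 at 15.9. Their shares, 24% and 21.2%, were close to that of all X genes.

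Neuropeptide genes had 4 of 34 with a member. After ins-39 came nlp-3 with a pooled signal of 30.6, at 20.1 in replicate 1 and 20.8 in replicate 2, and nlp-53 with 18.8. Receptors of neuropeptides and amines with the symbols npr, dop, ser, dmsr, frpr, tyra or ckr had 5 of 32. Highest in this list were npr-4 (28.8), npr-7 (25.2) and ser-7 (14.5), though 46.9% of the 32 genes had more than 1 start site. Homeobox ceh genes had 2 of 18, ceh-36 at 21.1, in replicate 2 only, and ceh-18 at 13.8, in replicate 1 only. Cuticle collagen genes had 4 of 27, led by col-19, the adult-stage collagen, at 24.02, then col-172 at 18.8 and col-177 at 14.9. The nsp peptide families had 1 of 19, nspc-17 itself.

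The smaller lists gave few members. Detoxification genes had 2 of 14, ugt-57 at 21.5 and cyp-14A1 at 17.1, and vitellogenin genes, which encode yolk proteins, had 1 of 5, vit-1 at 13.6. Of the 2 ribosomal protein genes on X, rpl-11.2 had a member with a signal of 22.9. None of the 6 genes with the symbol hlh, which encode bHLH transcription factors, had one. Apart from ins-39 and nspc-17, no gene of these lists was in the IDR list.

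**Figure D5:**
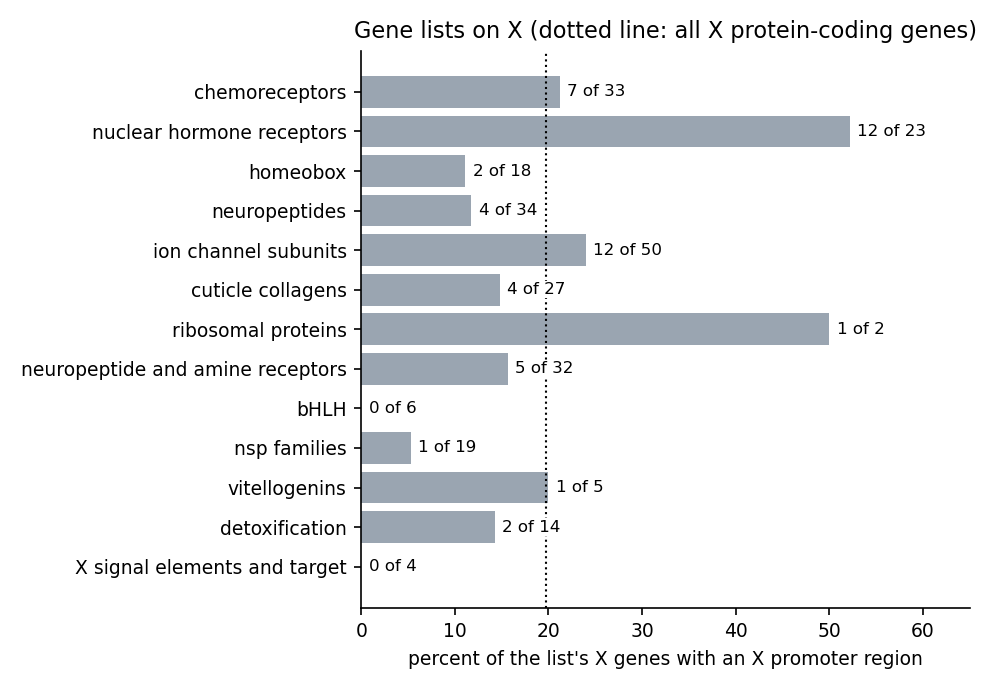
Percent of the X genes of each list that have an X promoter region in a promoter window (bars), with the count beside each bar; the dotted line is the share of all X protein-coding genes, 19.8%. The nhr bar, 12 of 23 genes, is farthest to the right. The bars of the bHLH list, which holds hlh genes only, and of the X signal elements with their target are at 0.

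Of the genes that count X chromosomes, none had a member, which at 4 genes and a share of 19.8% among all X genes is no result about them. sex-1, fox-1 and ceh-39, whose products repress xol-1, and xol-1 itself are these 4 genes. The nearest candidate region lay 8139 bp upstream of sex-1 (signal 13.2), 8116 bp downstream of the fox-1 start site (16.1) and 2370 bp upstream of ceh-39 (15.5). The one upstream of xol-1, at 4863 bp, was an IDR region with a signal of 160.1 and a pair of MEX cores within 100 bp of its summit. Nor had dmd-4 a member: its nearest candidate region had the summit 2429 bp downstream of a start site, with signals of 39.6 pooled, 47.8 in replicate 1 and 46.1 in replicate 2. The pooled value was below either replicate's. A replicate value is that of the strongest overlapping region, whose summit can lie elsewhere, and the lists may differ in scale. Around dmd-4 7 members lay within 50 kb, at atf-4 (31.4), epn-1 (29.9), dpf-2 (24.6), mbk-1 (21.2), C27C12.4 (20.9) and, with a pair of overlapping regions, egrh-1 (17.8 and 16.1). The transgene carries a copy of dmd-4, and the candidate region nearest to its start, at chrX:14859248-14859597, lies within the dmd-4 gene. Reads of the transgene copy and of its flanks cannot be told apart from the native ones in these files.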

How the data were processed

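The data were ChIP-seq region lists of 2 biological replicates of 1 group. Per the deposited file descriptions, the authors made candidate lists on ce11 per replicate and pooled, with a control alignment, and an IDR list. The aligner, caller, software versions and IDR threshold were not stated there. Signal values are as the authors deposited them. Coordinates are 1-based in ce11, genes come from Ensembl release 115 and sequence from RefSeq, both of WBcel235; 0 region ends lay beyond its chromosomes. The ce10 lists were not used here.

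Summits were assigned to start sites of protein-coding transcripts, each member being named by its nearest. A member matched a replicate where regions overlapped by at least 1 bp, and took the highest signal there. Motifs were searched in the 201 bp around the summit. Shares carry exact (Clopper-Pearson) 95% intervals. No test between groups was possible with 1 group, so comparisons are descriptions. The text names all IDR members, the 10 next strongest, up to 3 genes of each of 13 lists, dmd-4, sex-1, fox-1, ceh-39 and xol-1; other named genes were chosen after their values were seen. The members, lists and motifs were chosen with earlier results of these data known. The assignment, overlap and motif steps were tested on simulated data. Python 3.11.15, numpy 2.4.6, pandas 2.3.3, scipy 1.17.1 and matplotlib 3.10.9 were used.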

Additional observations from a re-analysis of the deposited data

How the results depend on the processing

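Other settings gave 45 values for 6 quantities: the number of members, their number in the IDR list, the share overlapping each replicate, the median signal, the median summit position and the number with the MEX core near the summit. Of the alternative values, 33 stayed within 1.5 times the reported count or inside the 95% interval of the reported share or median, and 12 moved. A narrower window, reaching 500 bp upstream and 100 bp downstream, gave 327 members, 6 in the IDR list, a median position of -257 bp and 0 with the MEX core; a wider one, reaching 2000 bp upstream and 500 bp downstream, gave 1056 members and a median position of -632 bp. IDR regions at or above that list's median signal included 4 members. Overlap of at least 50% of a member's length gave 30.5% in each replicate, and summits within 100 bp gave 23.6%. With replicate 1 or replicate 2 left out, the rule on the remaining list gave 900 to 925 members, 13 to 14 IDR regions overlapped, a median position of -395.5 to -376 bp, 2 to 3 members with the MEX core and a median signal of 8.60 to 9.44, each on that list's own scale; the share overlapping each replicate then has no value. No paired analysis was possible because the study has 1 group. Read depth is unknown, so a member missing from a replicate's list may be present there below its limit.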
